A study of Mus musculus with 4 samples.

Results

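The genes of the AP-1 subunits were examined in DNase-seq maps of 3T3-L1 cells: Jun, Junb and Jund, then Fos, Fosb, Fosl1 and Fosl2, and the partners Atf3, Batf and Batf3. These 10 of 21829 protein-coding genes were taken by symbol from the GENCODE M21 annotation of the mouse genome (mm10), and each was given a window of its gene body plus 50 kb on each side. The windows together covered 1.09 Mb and held 439 peaks of biosample 1 and 156 of biosample 2, which were 0.147% and 0.160% of the peaks on chromosomes 1 to 19, X and Y. Of these peaks, 26 and 13 lay within 1000 bp of a start site of a protein-coding transcript of the AP-1 gene itself and are called its promoter peaks. A further 68 and 38 lay within 1000 bp of a start site of one of 34 neighbouring coding genes, and 345 and 105 were distal. The windows of Atf3 and Batf3 overlap by 38.65 kb, so 11 and 4 peaks stand in both and were counted once in the totals.

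3T3-L1 is an immortalized mouse line of embryonic fibroblasts that can be turned into fat cells by hormones, and its labels give the strain as C57BL/6J, with sex not collected and age unknown. DNase I cuts accessible DNA, and the sequenced cut ends give peaks, each 150 bp long around these genes, and hotspots, broader regions of enriched cutting. The 4 libraries came from 2 biosamples of this line, 2 libraries each, with no treatment, time or differentiation stage named. Whether these were grown as separate cultures is not stated. The question the design poses is which accessible sites recur in both biosamples.

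The whole lists held 298793 and 97430 peaks and 247031 and 88636 hotspots for biosamples 1 and 2, and their read depth is unknown. The libraries of a biosample were pooled in 1 list, which leaves no replicate spread to test against, and the 95% Wilson intervals cover counting error over peaks only. Each peak carries the authors' own score, a whole number up to 150, which was read by its percentile within its own list. A site was called shared when a peak of each list met by at least 1 bp. Of fibroblast and preadipocyte marker genes, 7 of 7 had a promoter peak in both lists, against 1 of 5 mature adipocyte markers (Plin1), 0 of 3 blood, 0 of 3 epithelial, 0 of 2 hepatocyte and 2 of 3 endothelial markers (Pecam1 and Cdh5). Of the other mature adipocyte markers, the promoters of Fabp4 (score 87) and Lep (44) carried peaks only in the biosample 1 list, and those of Adipoq and Cfd in neither list.

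AP-1 is a dimeric transcription factor built from basic leucine zipper proteins of the Jun, Fos, ATF and BATF families. Jun proteins can pair with each other, whereas Fos proteins need a Jun partner, and the dimers bind the AP-1 element TGACTCA, which reads TGAGTCA on the other strand, or the related cyclic AMP response element (CRE) TGACGTCA. Many of these genes are immediate early genes, switched on quickly by growth factors in serum. MAP kinases act on the ETS partners with which SRF sits at the CArG box of the Fos promoter, and on Jun and ATF2, whose dimers bind a CRE-like word in the Jun promoter. In fibroblasts AP-1 is a main factor at enhancers, and in preadipocytes it acts early after hormonal induction.

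Selected sequences of member peaks that hold one of these words are shown first, from the reference assembly GRCm38.p6. They run 5′ to 3′ in the direction in which the AP-1 gene is transcribed. The words were searched on both strands of the 150 bp of each peak. None of the words contains another, although matches of different motifs may overlap at their ends. The first set holds every shared promoter or distal peak with a CArG box, in the Fos, Fosb and Junb windows, and the capitals mark that box. The match was centred 304 bp upstream of the Fos start site, 261 bp upstream of the nearest Fosb start site and 2090 bp downstream of the Junb start site, between the 2 annotated Junb transcripts. In the Fos downstream peak it lay 12229 bp from the start site. The second Junb transcript, which is not protein-coding, starts at 84976542, within 1000 bp of the Junb peak. That peak counts as distal here because only start sites of protein-coding transcripts were used.
Fos promoter (chr12:85473536-85473685, plus strand): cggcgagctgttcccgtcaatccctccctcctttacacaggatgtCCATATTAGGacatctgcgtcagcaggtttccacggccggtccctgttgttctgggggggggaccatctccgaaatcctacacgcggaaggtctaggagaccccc
Fosb promoter (chr7:19310296-19310445, minus strand): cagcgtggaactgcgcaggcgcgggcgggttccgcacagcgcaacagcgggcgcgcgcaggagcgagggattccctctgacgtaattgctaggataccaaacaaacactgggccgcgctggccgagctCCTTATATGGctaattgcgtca
Junb downstream peak (chr8:84976576-84976725, minus strand): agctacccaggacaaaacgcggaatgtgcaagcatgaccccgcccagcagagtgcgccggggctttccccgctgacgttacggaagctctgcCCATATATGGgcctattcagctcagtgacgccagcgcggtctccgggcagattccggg
Fos downstream peak (chr12:85485996-85486145, plus strand): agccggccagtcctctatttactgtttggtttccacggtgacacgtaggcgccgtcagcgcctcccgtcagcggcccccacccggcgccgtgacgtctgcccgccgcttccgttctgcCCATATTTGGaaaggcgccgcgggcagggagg

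The second set shows the promoter words of Jun, Jund and Fosl2. The capitals mark the CRE-like word TGACATCA, centred 41 bp upstream of the Jun start site, the CRE, centred 210 bp upstream of the Jund start site, and an AP-1 element, centred 56 bp downstream of the Fosl2 start site. For Fosl2 the centre of the peak lies in an exon, and the site alone is shown.
Jun promoter (chr4:95052216-95052365, minus strand): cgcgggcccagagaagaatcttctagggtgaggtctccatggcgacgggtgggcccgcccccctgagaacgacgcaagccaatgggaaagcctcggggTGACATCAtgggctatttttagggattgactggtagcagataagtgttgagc
Jund promoter, biosample 2 peak (chr8:70698716-70698865, plus strand): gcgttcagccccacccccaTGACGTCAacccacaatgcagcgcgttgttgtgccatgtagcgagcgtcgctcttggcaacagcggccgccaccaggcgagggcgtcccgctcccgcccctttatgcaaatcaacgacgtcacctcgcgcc
Fosl2 promoter site (chr5:32135844-32135870, plus strand): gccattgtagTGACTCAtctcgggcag

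The third set holds distal sites present in both lists. The Fosb, Fosl2 and Jund sequences are the strongest shared distal peaks of their windows, by the mean of the score percentiles in both lists, and the far downstream peaks of Fos and Jun each hold 2 AP-1 elements. The capitals mark the AP-1 element.
Fosb upstream peak (chr7:19327276-19327425, minus strand): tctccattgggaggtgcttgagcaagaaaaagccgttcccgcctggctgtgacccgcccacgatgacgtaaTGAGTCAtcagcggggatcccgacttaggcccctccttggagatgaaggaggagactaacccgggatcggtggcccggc
Fosl2 downstream peak (chr5:32192176-32192325, plus strand): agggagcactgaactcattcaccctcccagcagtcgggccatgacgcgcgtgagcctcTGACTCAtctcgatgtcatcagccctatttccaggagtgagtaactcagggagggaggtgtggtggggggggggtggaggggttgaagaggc
Jund upstream peak (chr8:70682296-70682445, plus strand): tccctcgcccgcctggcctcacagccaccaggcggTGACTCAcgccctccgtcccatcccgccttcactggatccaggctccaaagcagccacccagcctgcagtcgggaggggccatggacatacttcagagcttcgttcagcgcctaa
Fos far downstream peak (chr12:85519676-85519825, plus strand): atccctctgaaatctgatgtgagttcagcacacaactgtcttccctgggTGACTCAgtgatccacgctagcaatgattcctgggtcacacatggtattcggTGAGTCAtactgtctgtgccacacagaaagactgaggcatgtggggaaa
Jun far downstream peak (chr4:95001536-95001685, minus strand): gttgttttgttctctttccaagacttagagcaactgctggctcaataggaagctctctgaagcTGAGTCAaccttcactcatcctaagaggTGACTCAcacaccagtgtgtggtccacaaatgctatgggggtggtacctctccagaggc

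Most of the AP-1 genes had accessible promoters in both biosamples. A promoter peak was found in both lists at 7 of the 10 genes (Jun, Junb, Jund, Fos, Fosb, Fosl2 and Atf3), and 51.8% of all protein-coding genes had one. In biosample 1 alone it was found at Fosl1 and Batf3, which made 9 of the 10 genes in that list, beside 62.6% of all genes. Batf had none in either list. Among the 7 genes with a promoter peak in both lists, the order by mean percentile ran from Fosl2, Jun and Jund at the top to Fos at the bottom. With no replicate spread, neighbours in this order cannot be told apart. The strongest promoter peak of each gene was also ranked among all protein-coding genes, with the genes that had none tied at the bottom. Batf, without a peak, thus stood at percentiles 18.7 and 24.0 in the 2 lists. The values are therefore not ranks among the genes that had a peak. In this ranking Fos stood at percentiles 70.2 and 64.5 in the 2 lists, Atf3 at 59.0 and 71.0, and Junb at 81.3 and 82.0. Fosl2 stood at 92.7 and 98.3, and Fosl1 at 60.6 in biosample 1.

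**Figure D1:**
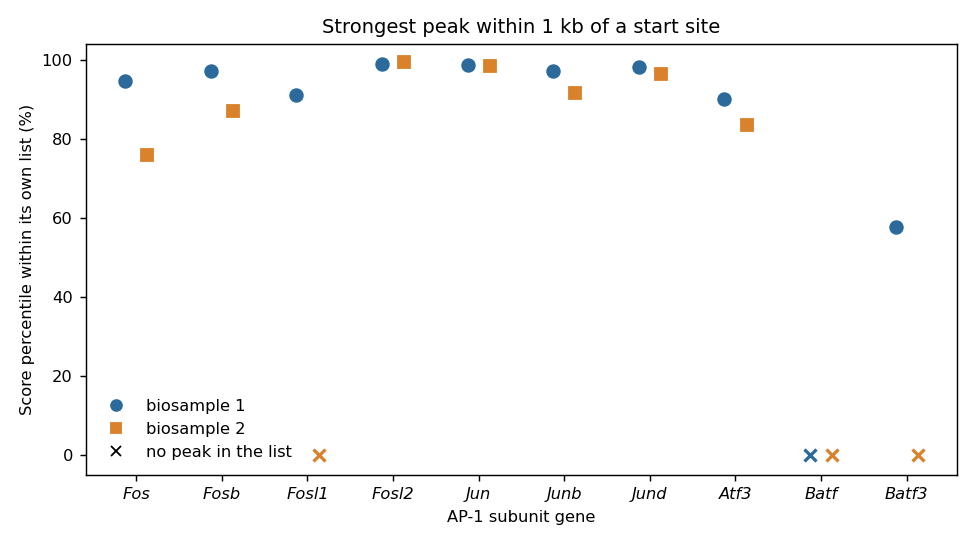
The plot gives, for each AP-1 gene, the score percentile (vertical axis, %) of its strongest promoter peak within the list of biosample 1 (circles) and of biosample 2 (squares), with crosses at 0 where a list had no peak. Fosl2 stands at 99.0 and 99.4, Fos at 94.7 and 76.0, and Fosl1, Batf and Batf3 have no biosample 2 peak. The 2 lists differ in length, so the percentiles of a gene are not on 1 scale.

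Jun (chr4:95049034-95052222, minus strand), the founding subunit and the usual partner of Fos, had a strong promoter in both lists and no other coding gene within its window. Its strongest promoter peak scored 144 in biosample 1 (percentile 98.6) and met a biosample 2 peak that scored 94 (percentile 98.5). This is the peak that holds TGACATCA in the sequence shown, and it is centred 68 bp upstream of the start site. The other 3 promoter peaks of biosample 1 lay over the exon, scored 85 to 112, and none of them was shared, beside 46.9% of all promoter peaks of that list. A second strong element stood just outside the promoter at chr4:95053256-95053405, 1108 bp upstream, with scores of 142 and 103 (percentiles 97.9 and 99.5). It outranked the promoter in biosample 2. A hotspot of 5331 bp in biosample 1 covered the gene's start site and 9 peaks, while the widest in biosample 2, of 862 bp, covered the start site and 2 peaks.

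Distal peaks of Jun numbered 39 in biosample 1 and 10 in biosample 2, and 11 of the 39 (28.2%, 16.5 to 43.8) were shared, beside 27.9% of all distal peaks of biosample 1. Of those 11, 4 held an AP-1 element, which 27.3% of all shared distal peaks held. They included a peak at −46268 bp with scores of 140 and 70 and the peak with 2 AP-1 elements at chr4:95001536-95001685, 50612 bp downstream of the start site, with scores of 132 and 69. The latter lies nearest to Mysm1, a histone H2A deubiquitinase gene.

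Junb (chr8:84974484-84978718, minus strand), which encodes a Jun protein that can restrain as well as replace Jun, lay in the window with the most distal peaks per 100 kb in biosample 1. It held 72 peaks in biosample 1, of which 52 were distal, 18 lay at promoters of other genes and 2 at its own, against 14 peaks in biosample 2 (8, 5 and 1). The promoter peak, centred 12 bp upstream of the start site, scored 140 (percentile 97.2) and its biosample 2 counterpart 72 (percentile 91.6). In biosample 1 a hotspot of 7711 bp, the widest in any of the 10 windows, ran over the gene and both flanks and held 13 peaks. It included 4 shared sites outside the promoter, of which 3 scored at least as high as the promoter peak in each list. The strongest by mean percentile, at chr8:84979896-84980045 and 1252 bp upstream, scored 146 and 86. The peak with the CArG box shown for Junb scored 145 and 83, and a peak at −2552 bp with an AP-1 element scored 148 and 72. The fourth, 3108 bp downstream, scored 127 and 66.

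Around Junb, 8 of the 52 distal peaks (15.4%, 8.01 to 27.5) met a biosample 2 peak, the lowest share of the 10 windows, beside 27.9% of all distal peaks. The 8 distal peaks of biosample 2 were all shared, beside 94.7% of all its distal peaks. Of its 7 distal biosample 1 peaks with an AP-1 element, only the peak at −2552 bp was shared. Over all distal biosample 1 peaks with that element 38.1% were shared, and with 7 peaks a difference from this was not tested. A peak with that element at −7052 bp scored 131 (percentile 93.3) in biosample 1 and had no biosample 2 counterpart.

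Jund (chr8:70698949-70700616, plus strand) encodes the Jun protein that is made at a steady level in resting cells. Its promoter peak scored 143 in biosample 1 (percentile 98.3) and 84 in biosample 2 (percentile 96.3), at 79 bp and 159 bp upstream of the start site. The biosample 2 window reaches further upstream and takes in the CRE of the sequence shown, which the biosample 1 window misses by its position. Of the 27 distal peaks of biosample 1, 12 (44.4%, 27.6 to 62.7) were shared, the highest share of the 10 windows, with the 27.9% of all distal peaks inside the interval. The strongest of them, chr8:70682296-70682445, 16579 bp upstream, held an AP-1 element, scored 139 and 49, and lay nearest to Lsm4. Only 5 of the 27 distal peaks lay nearer to Jund than to another coding gene, and 5 other genes have start sites in the window.

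Fos (chr12:85473890-85477273, plus strand), the classic immediate early gene, had 2 shared promoter peaks. The peak over the start site scored 134 (percentile 94.7) in biosample 1 and 51 (percentile 76.0) in biosample 2. The peak with the CArG box, centred 280 bp upstream, scored 124 (percentile 90.1) and 51. Fos thus had the lowest promoter percentile in biosample 2 among the 7 genes with a promoter peak in both lists. The distal peaks had median percentiles of 67.8 and 62.0, below the promoter, but a few outranked it in both lists. Among them, chr12:85455316-85455465, 18500 bp upstream, scored 146 and 107 (percentiles 99.3 and 99.7), and the peak at 23860 bp downstream scored 146 and 87 (percentiles 99.3 and 97.1). Neither held one of the words searched.

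All 31 distal peaks of biosample 1 around Fos lay nearest to Fos itself, as did the 13 of biosample 2. Of the 31, 12 (38.7%, 23.7 to 56.2) were shared, beside 27.9% of all distal peaks of biosample 1. Downstream of the gene lay 20 of the 31. A CArG box stood in the downstream peak at 12180 bp that is shown above, with scores of 133 and 64, and the 2 AP-1 elements in the peak at 45860 bp, with scores of 136 and 62. CTCF, the insulator factor, had a motif match in 2 shared peaks, at 14000 bp (scores 122 and 40) and 23060 bp (scores 112 and 52).

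Fosb (chr7:19302696-19310051, minus strand), which encodes the Fos protein whose short form builds up in repeatedly stimulated neurons, had 4 promoter peaks in biosample 1 and 2 in biosample 2. The strongest lay 890 bp downstream of the most internal start site and scored 140 and 64 (percentiles 97.2 and 87.0). The CArG box peak upstream of the outer start sites scored 119 and 58. Of 41 distal peaks 9 (22.0%) were shared, beside 27.9% of all distal peaks of biosample 1. All 9 distal peaks of biosample 2 were shared, beside 94.7% of all its distal peaks. The strongest shared one is the upstream peak at 17299 bp whose AP-1 element is shown, with scores of 136 and 56. A run of peaks in the window belonged to the DNA repair gene Ercc1 by distance: the widest biosample 1 hotspot, 4617 bp with 7 peaks, was nearest to it. Of the 41 distal peaks, 14 were nearest to Fosb.

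Fosl1 (chr19:5447547-5455946, plus strand), which encodes FRA-1, a Fos protein that AP-1 itself induces, had an accessible promoter in the list of biosample 1 alone. In biosample 1 its promoter had 3 peaks, the strongest scoring 126 (percentile 91.1) and centred 85 bp from a start site, inside a hotspot of 5323 bp with 10 peaks. In biosample 2 it had no promoter peak and no hotspot within 1000 bp of a start site. A shared element lay close by, however. The peak at chr19:5445036-5445185, 2437 bp upstream, scored 145 and 98 (percentiles 99.0 and 99.0), was the strongest shared distal peak of the window and held a TEAD word. TEAD factors, the DNA-binding partners of YAP, bind CATTCCA or CATTCCT.

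The Fosl1 window was crowded, with 10 other genes' start sites. It held 75 peaks in biosample 1 and 33 in biosample 2, the most of the 10 windows in both lists, and 20 of each were promoter peaks of those neighbours. Of the 52 distal peaks of biosample 1, 12 (23.1%) were shared, beside 27.9% of all its distal peaks, and 17 lay nearest to Fosl1. The unshared peak with an AP-1 element at 1145 bp downstream scored 128 (percentile 92.0), above the promoter peak itself.

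Fosl2 (chr5:32135801-32157842, plus strand), which encodes FRA-2, had the strongest promoter of the 10 genes by the mean percentile of its top peaks. In biosample 1 the highest peak scored 145 (percentile 99.0), 291 bp upstream of the start site, and met a biosample 2 peak that scored 81 (percentile 95.4). The peak 69 bp downstream scored 144 in biosample 1 and met the highest promoter peak of biosample 2, which scored 102 (percentile 99.4). The AP-1 element of the site shown lies in that peak, the only shared promoter peak of the 10 genes that held one. Biosample 2 had 4 promoter peaks here against 3 in biosample 1. Of its 4, 2 were not met by a biosample 1 peak, although they lay in a biosample 1 hotspot. Of all promoter peaks of biosample 2, 89.2% met a biosample 1 peak.

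No other coding gene starts within the Fosl2 window. Of 36 distal peaks in biosample 1, 10 (27.8%) were shared, beside 27.9% of all its distal peaks. The strongest of these, 56449 bp downstream, holds the AP-1 element shown and scored 143 and 75, but it lies nearest to Plb1, a phospholipase gene whose start site is 40464 bp away. The hotspot over the start site was 4989 bp wide with 7 peaks in biosample 1 and 1190 bp with 3 peaks in biosample 2.

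Atf3 (chr1:191170296-191218039, minus strand), a stress-induced partner that pairs with Jun proteins, had a promoter peak in both lists at 1 of its 2 coding start sites. Of its promoter peaks, 3 of biosample 1 (highest score 124, percentile 90.1) and 1 of biosample 2 (59, percentile 83.4) stood at the downstream start site, 191183340. The upstream start site, 191218039, had 1 peak in biosample 1, which scored 51 (percentile 32.2), and 0 in biosample 2. The promoter peak in both lists thus depends on the downstream start site. The Atf3 window, the longest at 147.7 kb, had the most shared distal peaks with an AP-1 element. These were 6 of its 13, against 0 to 4 in each of the other windows. Over all shared distal peaks 27.3% held one, and whether the share around Atf3 differs from this was not tested. Of the 6, the peak at chr1:191123876-191124025 lay 59390 bp downstream and nearest to Batf3, and it stands in the Batf3 window too. The strongest shared distal peak of the Atf3 window, chr1:191224896-191225045, lay 6931 bp upstream and scored 133 and 57, without an AP-1 element.

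Batf (chr12:85686669-85709087, plus strand) and Batf3 (chr1:191097847-191108945, plus strand) encode partners of Jun proteins that are known for their roles in lymphocytes and dendritic cells. Batf had no promoter peak and the fewest peaks of the 10 windows, 19 in biosample 1 and 7 in biosample 2. Of its 18 distal peaks in biosample 1, 5 (27.8%) were shared, beside 27.9% of all distal peaks of that list. The strongest of the 5, 23599 bp upstream, scored 117 (percentile 86.7) and 34 (percentile 52.0). Batf3 had 1 promoter peak in biosample 1, 815 bp upstream, with a score of 73 (percentile 57.8), and 0 in biosample 2. Of its 24 distal peaks in biosample 1, 7 (29.2%) were shared, beside the same 27.9%. They were led by chr1:191075636-191075785, 22615 bp upstream and nearest to Nsl1, with scores of 124 and 49 and a CTCF match. In biosample 2 the median percentile of the distal peaks was 21.1 around Batf (6 peaks) and 26.9 around Batf3 (8 peaks), and 52.0 to 91.1 around the other 8 genes. In biosample 1 it was 47.4 around Batf, the lowest of the 10, but 66.4 around Batf3, within the range of 51.7 to 71.2 of the other 8.

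**Figure D2:**
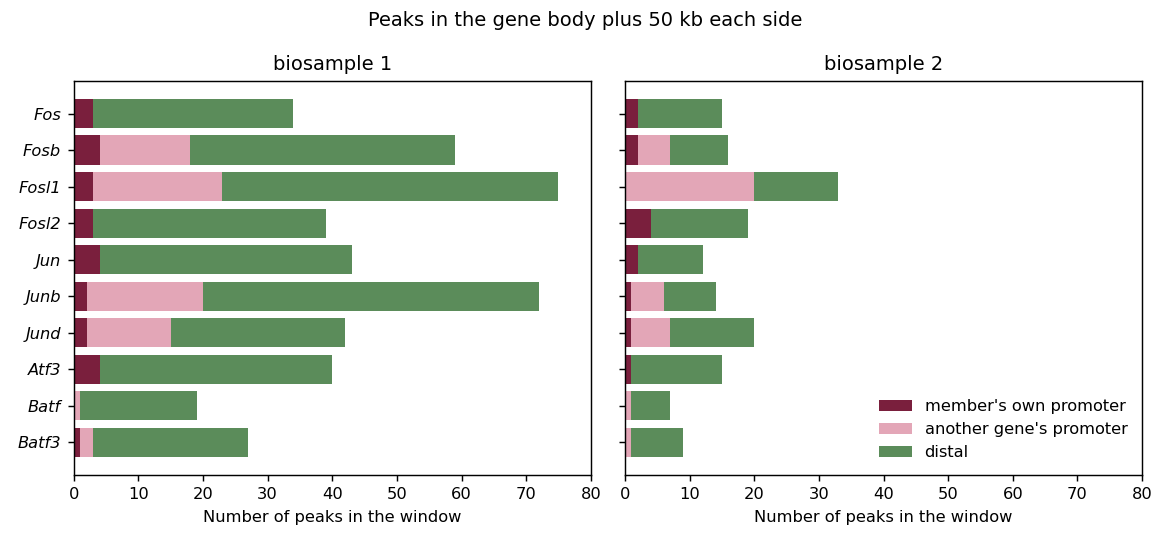
Bars give the number of peaks (horizontal axis) in the window of each AP-1 gene in biosample 1 (left) and biosample 2 (right), divided into its own promoter, promoters of other genes, and distal peaks. Fosl1 has 75 and 33 peaks, Batf has 19 and 7, and only the windows of Fos, Fosl2, Jun and Atf3 hold no promoter peak of another gene.

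The surroundings of the AP-1 genes were dense in distal peaks. Per 100 kb of window, the median over the 10 genes was 29.7 distal peaks in biosample 1, against 13.5 over all 21829 protein-coding genes, and 9.58 in biosample 2 against 3.74. In each list all 10 genes lay above the median of all genes, and 9, all but Batf, lay above its upper quartile of 19.6 and 5.86. Junb (49.9) and Fosl1 (48.0) were the densest in biosample 1, at percentiles 99.6 and 99.5 of all genes. In biosample 2 the order changed: Jund (12.8), Fos (12.6) and Fosl2 (12.3) led, and Junb, at 7.67, was eighth of the 10. Batf was lowest in both, at 14.7 and 4.90.

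These densities were also set against narrower backgrounds that were added after the values were seen. Against the 11318 genes with a promoter peak in both lists, whose medians were 15.9 and 4.49, 9 of the AP-1 genes lay above the median in biosample 1 and 10 in biosample 2. Against the 15333 genes with windows as long as those of the members, all 10 lay above the medians of 13.9 and 3.75 in both lists. Hotspots covered a median of 15.6% of the windows in biosample 1 and 3.97% in biosample 2, against 6.84% and 2.00% over all genes. They covered 34.3% and 10.8% of the Fosl1 window, the highest of the 10 in both lists, and 5.19% and 1.14% of the Batf window, the lowest.

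**Figure D3:**
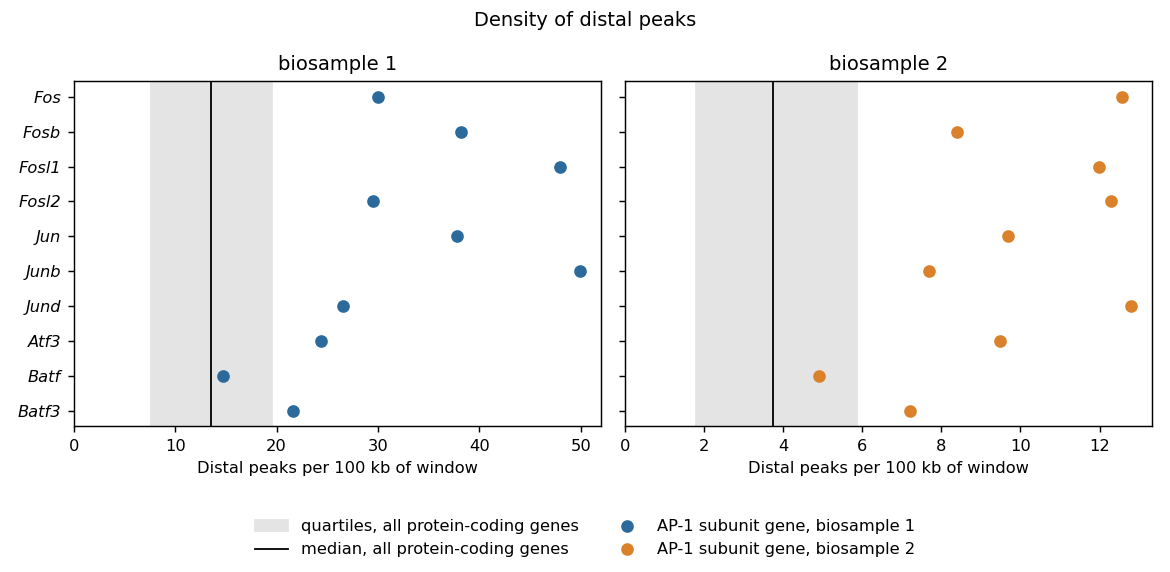
Points give the distal peaks per 100 kb of window (horizontal axis) of each AP-1 gene in biosample 1 (left) and biosample 2 (right), over the median (line) and quartiles (grey) of all protein-coding genes. All 10 genes lie right of the medians of 13.5 and 3.74, and Batf is the only one within the grey band.

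The distal peaks were also high within their lists. The median percentile of the 345 distal peaks of biosample 1 was 64.2, against 46.9 over all distal peaks of that list, and that of the 105 of biosample 2 was 63.5 against 46.3. The top score decile held 13.0% of them in biosample 1 and 14.3% in biosample 2, against 7.46% and 7.23% of all distal peaks.

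Of the biosample 1 peaks, about as many were shared as elsewhere. Of the 26 promoter peaks of biosample 1 at AP-1 genes, 11 (42.3%, 25.5 to 61.1) met a biosample 2 peak, beside 46.9% of all its promoter peaks. Of its 345 distal peaks in the windows, 96 (27.8%, 23.4 to 32.8) did, beside 27.9% of all distal peaks. In the other direction 97 of the 105 distal peaks of biosample 2 (92.4%, 85.7 to 96.1) met a biosample 1 peak, beside 94.7% of all. The background share lies within each of these intervals. Of the 13 promoter peaks of biosample 2 at AP-1 genes, 10 (76.9%, 49.7 to 91.8) met a biosample 1 peak. Of the 38 at promoters of other genes, 32 (84.2%, 69.6 to 92.6) did. The share over all its promoter peaks, 89.2%, lies within both intervals. Over all classes, 139 of the 156 biosample 2 peaks (89.1%, 83.2 to 93.1) met a biosample 1 peak, beside 93.5% of all its peaks, a share just above that interval. This total was not adjusted for the mix of promoter and distal peaks. All 156 met a biosample 1 hotspot, including the 17 that met no biosample 1 peak, beside 98.6% of all biosample 2 peaks. The 301 biosample 1 peaks without a counterpart ranked lower, at a median percentile of 58.6, than the 138 with a counterpart, at 90.6. The same medians over all biosample 1 peaks are not given here, so this contrast is not set apart from the rest of the list.

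The 96 shared distal peaks lay at all distances from the genes. Within 5 kb of a start site of the AP-1 gene were 18 of them, 42 lay at 5 to 25 kb and 36 beyond 25 kb. Upstream of the gene lay 50 and downstream 36, with 7 in introns, 2 in exons and 1 between the Junb transcripts. An AP-1 gene was the nearest coding gene to 57, and another gene was nearest to 39, so for these the window alone ties the peak to AP-1.

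**Figure D4:**
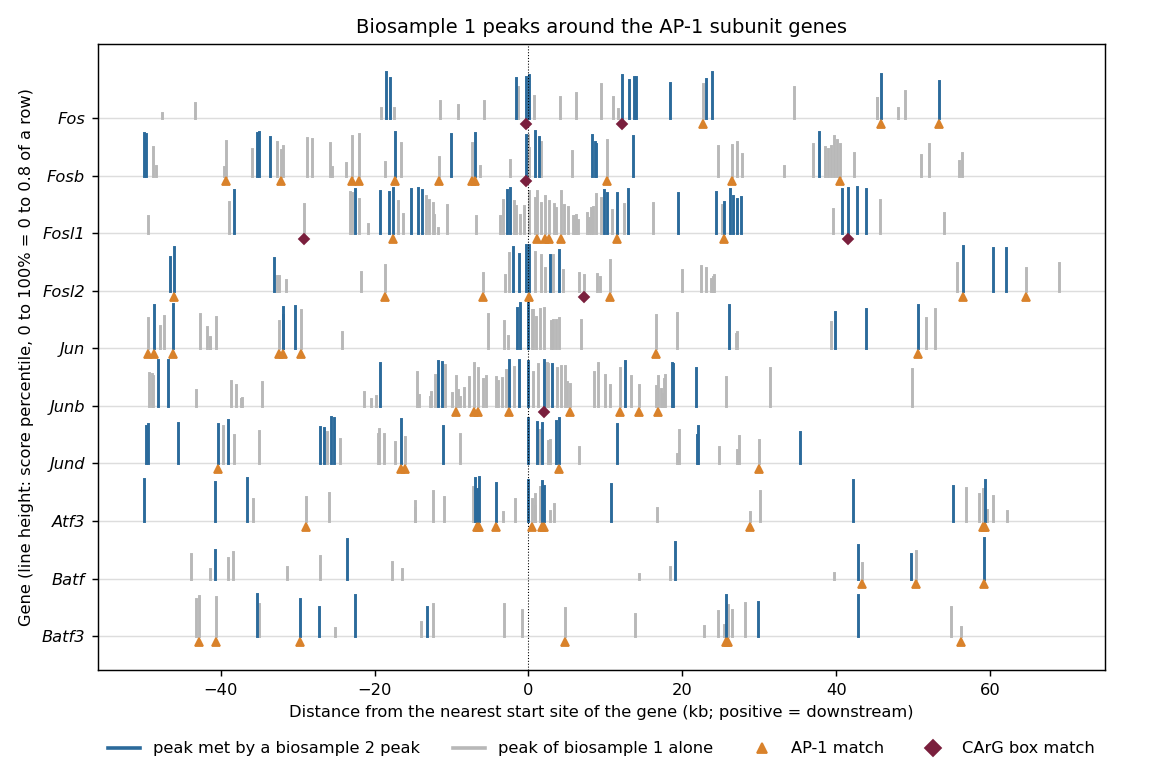
Each line is a biosample 1 peak at its distance (horizontal axis, kb) from the nearest start site of the AP-1 gene, with height giving its score percentile, in blue where a biosample 2 peak met it and grey where none did; triangles mark AP-1 words and diamonds CArG boxes. Blue lines stand beside the start site in Fos, Fosb, Fosl2, Jun, Junb, Jund and Atf3, and the grey runs are thickest around Fosl1 and Junb.

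AP-1 elements were no more frequent at the distal sites of the AP-1 genes than elsewhere. Of the 96 shared distal peaks, 22 (22.9%, 15.6 to 32.3) held TGACTCA or TGAGTCA, beside 27.3% of all 72124 shared distal peaks of the same length. Every window but that of Batf had at least 1 of them. In the biosample 1 windows, the 58 distal peaks with the element had a median percentile of 80.8, against 62.0 for the 287 without it, and 37.9% (26.6 to 50.8) against 25.8% (21.1 to 31.1) of them were shared. Over all distal peaks of biosample 1 the same values were 57.8 against 43.3, and 38.1% against 25.4%.

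The other words gave small counts. TEAD words were found in 9 of the 96 peaks (9.38%, 5.01 to 16.9, beside 12.1% of all), CTCF matches in 4 (4.17%, 1.63 to 10.2, beside 9.14%) and TGACATCA in 4 (4.17%, 1.63 to 10.2, beside 1.54%). The CArG box was found in 2 (2.08%, 0.573 to 7.28, beside 0.786%), and the CRE in 0 (up to 3.85%, beside 0.318%). Of all 345 distal biosample 1 peaks, 6 held a CTCF match (1.74%, 0.799 to 3.74, beside 4.05%) and 11 TGACATCA (3.19%, 1.79 to 5.62, beside 1.68%). These 2 backgrounds lay outside the intervals, and those of the other words, the AP-1 element included, lay inside. For the 105 distal peaks of biosample 2 every background lay inside. At the 11 shared promoter peaks of biosample 1, 2 held a CArG box (18.2%, 5.14 to 47.7), those of Fos and Fosb, beside 0.708% of the 18646 shared promoter peaks of all genes. Single shared promoter peaks held the AP-1 element (Fosl2, beside 5.60%) and TGACATCA (Jun, beside 0.981%). A match shows only that the letters are there, and binding was not measured.

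**Figure D5:**
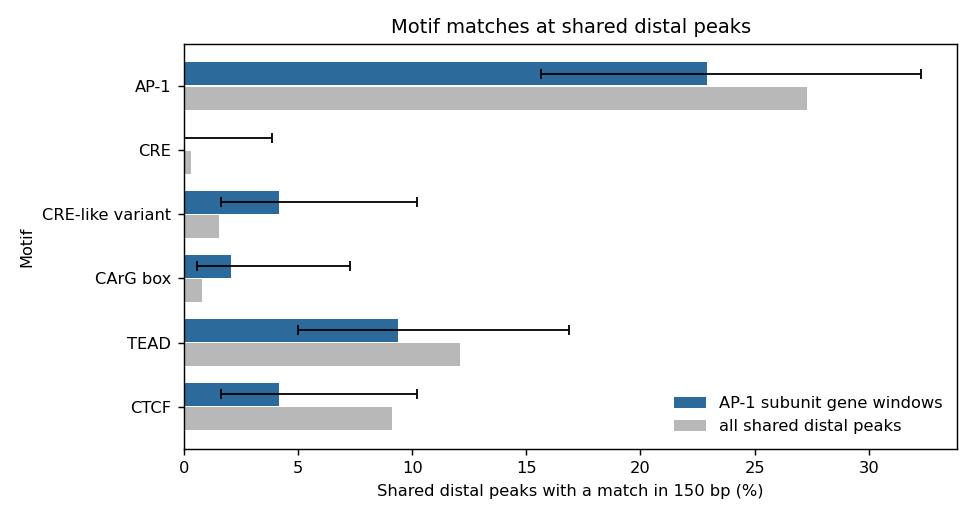
Bars give the share (horizontal axis, %) of shared distal biosample 1 peaks whose 150 bp hold each motif, for the 96 peaks in the AP-1 gene windows (blue, with 95% Wilson intervals) and for all 72124 (grey); the CRE-like variant is TGACATCA. The AP-1 element stands at 22.9% and 27.3%, and the CTCF motif at 4.17% and 9.14%.

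Genes of the wider AP-1 pathway had promoter peaks in both lists in 52 of 57 cases, and in biosample 1 alone in the other 5, beside 51.8% of all protein-coding genes in both lists and 62.6% in biosample 1. Of 13 other basic leucine zipper partners, 12 had one in both, with Nfe2l1 (scores 149 and 105) and Maf (147 and 97) highest. Of 12 upstream kinases, 10 did, with Mapk14, which encodes p38α (143 and 88), highest. All 9 regulators of Fos and Jun transcription did, with the SRF coactivator gene Mrtfa (148 and 100) and Stat3 (147 and 94) highest, and so did all 8 feedback inhibitors, with the MAP kinase phosphatase genes Dusp10 (147 and 98) and Dusp6 (145 and 88) highest. Of 15 AP-1 target genes, 13 did, among them the hyaluronan receptor gene Cd44 (147 and 89). The 5 genes with a promoter peak in biosample 1 alone were Batf2, Mapk10, Map3k1, Mmp13 and Lif, which are named after their values were seen. The AP-1 genes themselves, at 7 of 10, thus included the only gene of these lists with no promoter peak in either list, Batf.

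Of all other protein-coding genes, Cxcl1, Cyp1b1 and Itprip came nearest to Junb, the AP-1 gene with the most distal biosample 1 peaks per 100 kb. Likeness was the Euclidean distance over 4 percentiles, those of the strongest promoter peak and of the distal density in each list, and it was 2.79, 4.16 and 4.86 percentile points. Cxcl1 had 48.1 and 7.85 distal peaks per 100 kb in the 2 lists, beside 49.9 and 7.67 for Junb. These densities entered the distance, so their closeness follows from how Cxcl1 was chosen.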

How the data were processed

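DNase-seq of 3T3-L1 cells gave 4 libraries in 2 biosamples, grouped by the biological replicate number of the labels. Per the text files deposited with the lists, the authors pooled both libraries of a biosample in 1 alignment to mm10 and called peaks and hotspots on it. Aligner and callers are not given in the sources used here. Each peak of the deposited lists has the authors' score, whose definition is not given, read here as a mid-rank percentile within its list. The deposited hotspot lists hold a −log10 q value with a cap of 100, not used for ranking.

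Coordinates are mm10. The reference GRCm38.p6 has the same chromosome sequences. Start sites were those of protein-coding transcripts in GENCODE M21 (54355 sites), with promoters within 1000 bp. Promoters with an observed over expected CpG ratio of at least 0.6 were CpG-rich (8 of the 10 genes, all but Atf3 and Batf, at the most upstream start site). Overlap, start-site and motif code was tested on simulated data. Python 3.11.15, numpy 2.4.6, scipy 1.17.1 and pysam 0.24.0 were used. No replicate test was possible, so comparisons are counts with 95% Wilson intervals beside the same quantity over all features.

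The members and lists were chosen with earlier results of these data known. Named were all members with their strongest promoter peak and strongest shared distal peak, of each pathway list the 2 genes with the highest mean percentile and at most 4 that had no promoter peak, and the 3 genes most like the densest member. Some genes that this rule gives are not reported here. Sequences follow the rule for Fosb, Fosl2 and Jund (distal) and Jun (promoter); the other 8, and other single peaks given in the text, were added after the values were seen.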

Additional observations from a re-analysis of the deposited data

How the results depend on the processing

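Of 53 alternatives to 8 results, 45 were labelled as keeping the value and 8 as moving it. The results are counts, shares and medians without a set direction, so reversal was not tested. A share was kept where it stayed inside the Wilson interval of the main setting. The limits for counts were wide: 6 and 9 genes in place of 7 were labelled as kept, as were 301 biosample 1 peaks in place of 439. With 100 kb on each side the windows held 739 and 259 peaks, with 25 kb biosample 2 had 103, and with the biosample 1 list shortened to its strongest peaks, as many as biosample 2 has, biosample 1 had 227. That shortened list raised the shared promoter peaks from 42.3% to 61.1% and the shared distal peaks from 27.8% to 56.9%, and lowered the median density from 29.7 to 15.1 distal peaks per 100 kb, since it holds fewer and stronger peaks. A promoter window of 500 bp gave 64.3% shared promoter peaks. The promoter count stayed at 7 of 10 genes, with the same genes, under 6 settings. It was 6 with the most upstream start site only, which lost Atf3, and 9 by biosample 1 without biosample 2, which gained Fosl1 and Batf3. The share of shared distal peaks with an AP-1 element ran from 18.8% (25 kb) to 27.0% (100 kb). With start sites of all annotated genes, biosample 1 had 288 distal peaks, and the median densities were 25.2 and 7.32 per 100 kb. No value over all features was computed under the alternatives. The shares of shared peaks and the densities given here for alternatives therefore have no background. The backgrounds of the main setting do not apply to them. Start sites of all transcripts of the members were an alternative added after the data were seen. No paired analysis was possible because the lists pool the libraries of each biosample, and leaving out single libraries was not possible for the same reason. Unknown read depth limits every comparison of list length.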
